A study of Mus musculus with 4 samples.

Results

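Genomic imprinting is the parent-of-origin control of gene expression, in which 1 allele of a gene is kept silent. In most cases this depends, directly or indirectly, on DNA methylation set in the egg or the sperm. Most imprinted genes lie in clusters under an imprinting control region, and many encode regulators of growth, metabolism and differentiation, or long non-coding RNAs that silence or accompany their neighbours. Paternally expressed genes tend to favour growth and maternally expressed genes to restrain it, and in the testis Dlk1 is known as a product of fetal Leydig cells.

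The genes described here are 33 imprinted mouse genes, taken from the 55812 features of the deposited read count table by matching each Ensembl identifier to its symbol on GRCm38. They fall into 16 imprinted clusters, and by textbook knowledge 12 are expressed from the maternal allele, 20 from the paternal allele and 1, Gnas, from either allele depending on the isoform. Counts of reads per gene do not separate the alleles, so the allele is a label from outside these data. For some members, such as Ppp1r9a and Copg2, imprinting is known only in certain tissues.

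RNA sequencing was done on primary mouse Leydig cells, the interstitial cells of the testis that make testosterone, from a source labelled as 6-month-old mouse. One group of cells received Trps1 siRNA, a small interfering RNA directed at Trps1, which encodes a GATA-type zinc finger repressor, and the other received Negative siRNA, with 2 samples in each group. The labels used here give no strain, no culture conditions and no time from siRNA to harvest. The Trps1 siRNA libraries held 17844125 and 21597187 counts, and the Negative siRNA libraries held 20116799 and 25852898. Nothing in the labels tells whether samples within a group were separate cultures or animals, so every p-value reflects sample-to-sample spread that may be purely technical.

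The targeted gene was checked first. Trps1 had 420 and 655 counts (23.5 and 30.1 CPM, counts scaled to library size) in the Trps1 siRNA samples, against 765 and 1080 counts (38.1 and 42.2 CPM) in the Negative siRNA samples. The groups did not overlap, and Trps1 fell by 0.58 ± 0.10 (standard error, SE) on the log2 scale, to 0.671 of its level with Negative siRNA, and edgeR's quasi-likelihood test with Benjamini-Hochberg adjustment gave an adjusted p of 0.000351. Markers of adult Leydig cells were present in all libraries, with all 8 listed genes above the filter on low counts. Their summed level was 6035 and 6477 CPM with Trps1 siRNA, against 4054 and 4337 CPM with Negative siRNA, and 6 of the 8 rose by edgeR's test. Macrophage markers were also present, with none of 12 at 0, and they summed to 2351 and 1857 CPM with Trps1 siRNA and 2825 and 2741 CPM with Negative siRNA, with 8 of the 12 lower by edgeR's test. Fibroblast and stromal markers summed to 5127 and 5065 CPM with Trps1 siRNA and to 5109 and 5086 CPM with Negative siRNA. Of these 7, Col3a1 rose and Col1a2 fell by edgeR's test, in opposite directions within the sum. Markers of peritubular smooth muscle were scarce, at 59.0 and 62.8 CPM with Trps1 siRNA and 94.1 and 95.1 CPM with Negative siRNA, and 2 of the 4 tested, Acta2 and Myl9, fell by edgeR's test. Those of endothelial, Sertoli and germ cells summed to under 50 CPM each in every library. Among them, Gata1 of the Sertoli list and Zbtb16 of the germ cell list rose by edgeR's test, and the others tested did not pass. Only 4 of the 7 Sertoli genes and 2 of the 8 germ cell genes had enough counts to be tested. Zbtb16 alone, at 35.6 and 46.1 CPM with Trps1 siRNA and 34.2 and 31.5 CPM with Negative siRNA, made up most of the germ cell sum.

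Of the imprinted genes, 6 rose with Trps1 siRNA: Grb10, Meg3, Rian, Plagl1, Ppp1r9a and Sgce. Their rises were modest, between 1.17-fold for Sgce and 1.65-fold for Meg3. Of the 33 genes, 25 had enough counts to be tested. Higher calls, meaning an adjusted p under 0.05 by edgeR's quasi-likelihood test over all 14701 genes tested, came to 6 of these 25, or 24%, where the share over all genes tested was 5.24%. No tested member was called lower, where 6% of all genes tested were; 2 members were lower at an unadjusted p under 0.05, and DESeq2 and limma voom each called 0 members lower. DESeq2 called 3 members higher and limma voom 5, beside 403 and 708 of all 14701 genes tested. Lower calls over those 14701 genes were 511 with DESeq2 and 800 with limma voom. The median log2 fold change, Trps1 siRNA over Negative siRNA, was 0.23 over the 25 tested members and 0.0024 over all genes tested. Both Trps1 siRNA samples lay above both Negative siRNA samples for 12 of the 25 members, or 48%, beside 26% of all genes tested. They lay below for 6 members, or 24%, beside 26.1% of all genes tested.

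All 6 called genes were among the 13 tested members that averaged at least 5 CPM. Another 9 tested members averaged under 2 CPM, where small read numbers limit what can be resolved. Over all genes, 10763 averaged at least 5 CPM. A fit of only such genes called the same 6 members higher and 1689 genes in either direction. The summed level of all 33 genes was 475 and 485 CPM in the Trps1 siRNA samples, against 410 and 387 CPM in the Negative siRNA samples, a ratio of 1.21. These are bulk samples, so fewer cells of a type and less RNA per cell cannot be told apart in any of these values. The differences in Leydig, macrophage and peritubular marker sums given above run alongside those of the imprinted genes, and their part in the result was not tested.

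**Figure D1:**
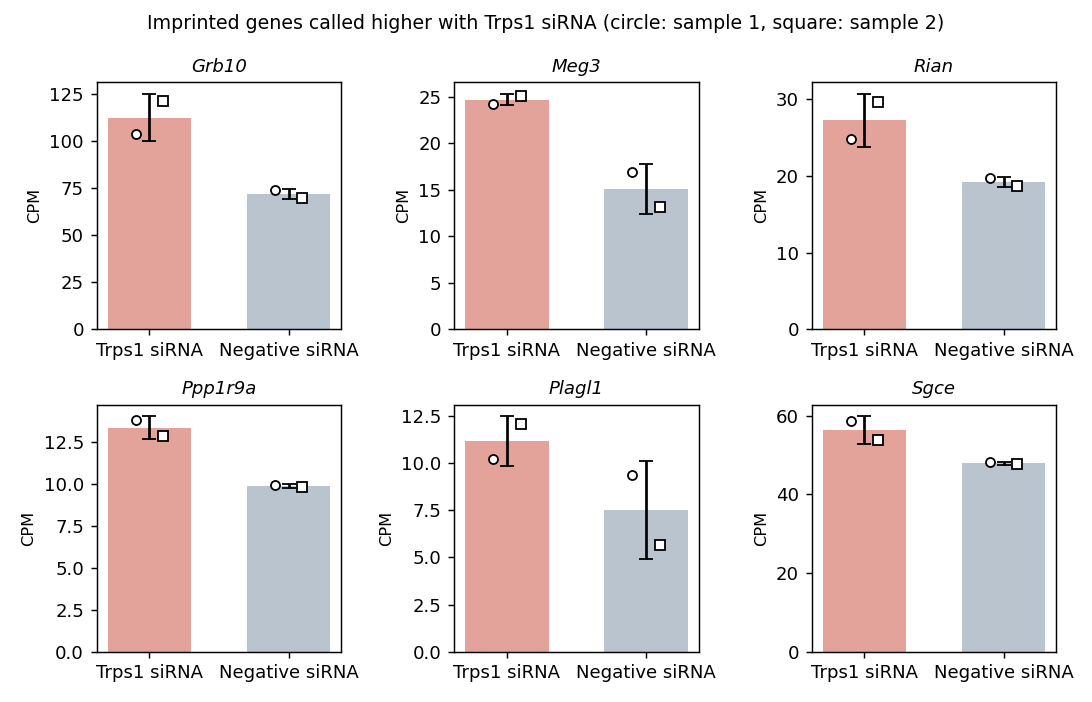
CPM of the 6 imprinted genes that were called higher, for Trps1 siRNA (left bar) and Negative siRNA (right bar); bars are means, error bars are SD (n = 2), and points are the samples. In each gene both Trps1 siRNA points lie above both Negative siRNA points, with the narrowest gap for Plagl1, at 10.3 and 12.1 CPM against 9.35 and 5.66 CPM.

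Grouped by expressed allele, 4 of the 6 higher calls were of maternally expressed genes. Of the 12 maternally expressed genes, 8 were tested and 4 rose (50%), namely Grb10, Meg3, Rian and Ppp1r9a, with 7 of the 8 estimates positive and a median log2 fold change of 0.55. Of the 20 paternally expressed genes, 16 were tested and 2 rose (12.5%), namely Plagl1 and Sgce, with 9 estimates positive, 7 negative and a median of 0.15. The share called higher over all genes tested was 5.24%. The maternally expressed genes summed to 212 and 230 CPM with Trps1 siRNA, against 165 and 154 CPM with Negative siRNA, a ratio of 1.39. Much of that sum was Grb10 alone, which averaged 112 CPM with Trps1 siRNA and 71.8 CPM with Negative siRNA. The paternally expressed genes summed to 240 and 228 CPM with Trps1 siRNA, against 221 and 210 CPM with Negative siRNA, a ratio of 1.08. The difference between the allele sets was not tested, and Meg3, Rian and Mirg, transcribed in the same direction from 1 locus, are not independent members. The paternal median was -0.02 without Trps1 siRNA sample 1, and without Trps1 siRNA sample 2 the maternal count of higher calls was 2.

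**Figure D2:**
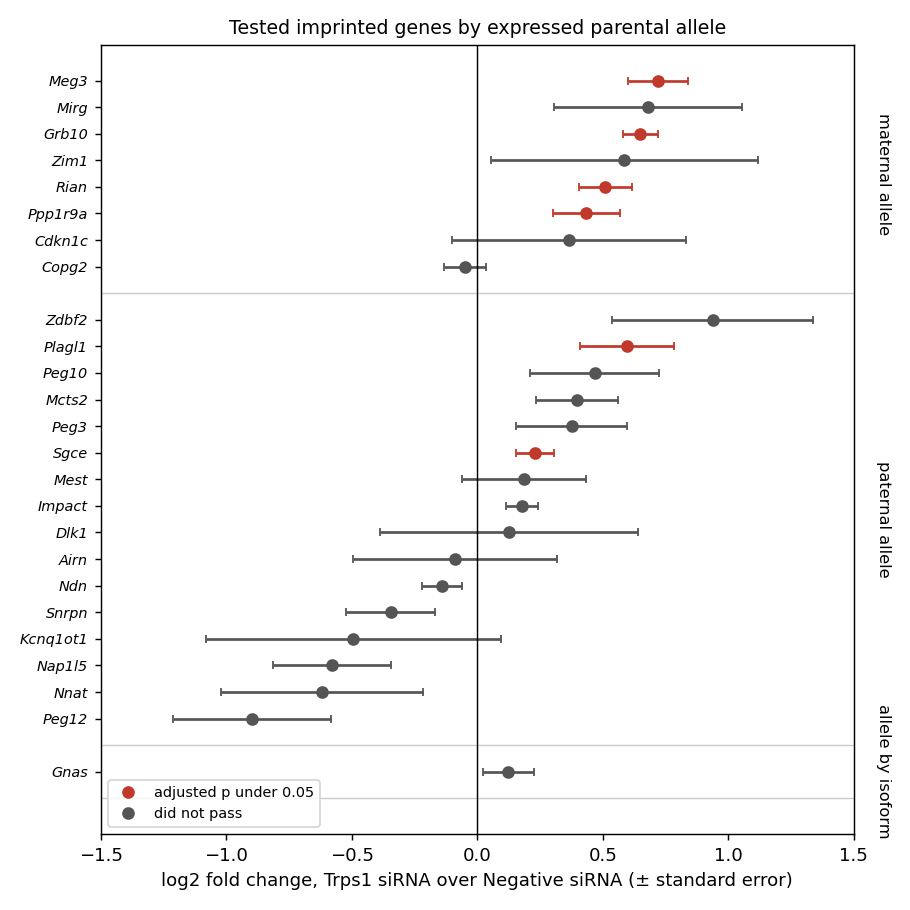
Log2 fold change of Trps1 siRNA over Negative siRNA for the 25 tested imprinted genes, grouped by expressed parental allele, with points for estimates, bars for standard errors and red for an adjusted p under 0.05. The 8 maternal estimates run from -0.05 (Copg2) to 0.72 (Meg3), and the 16 paternal ones from -0.90 (Peg12) to 0.94 (Zdbf2).

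In the Dlk1-Meg3 cluster on chromosome 12, the maternally expressed long non-coding RNAs Meg3 and Rian rose. Meg3 (GRCm38 chr12:109541001-109571726, plus strand) is the first transcript of a chain of maternal non-coding RNAs, and Rian (chr12:109603940-109661716, plus strand) follows it and hosts box C/D small nucleolar RNAs. RefSeq windows at their annotated starts are shown because they are the called neighbours of 1 cluster. On GRCm38.p6 the windows run from 250 bases before to 50 bases after the start. Both are read on the plus strand, at chr12:109540746-109541045 for Meg3 and chr12:109603695-109603994 for Rian. Whether Rian has a promoter of its own at that start, apart from the chain that Meg3 begins, was not tested. Capitals mark GCGGCA, the reverse complement of TGCCGC, in Meg3 and AGATAA in Rian. TGCCGC is the hexamer that the zinc finger protein ZFP57, a keeper of imprints, recognises when methylated, and AGATAA is a core of the GATA type that proteins of the Trps1 family bind.
Meg3: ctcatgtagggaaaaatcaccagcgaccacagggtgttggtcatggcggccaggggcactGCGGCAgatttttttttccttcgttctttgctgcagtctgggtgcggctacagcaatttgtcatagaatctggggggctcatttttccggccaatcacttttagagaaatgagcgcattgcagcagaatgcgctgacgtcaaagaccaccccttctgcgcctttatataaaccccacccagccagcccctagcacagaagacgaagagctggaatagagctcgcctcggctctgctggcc
Rian: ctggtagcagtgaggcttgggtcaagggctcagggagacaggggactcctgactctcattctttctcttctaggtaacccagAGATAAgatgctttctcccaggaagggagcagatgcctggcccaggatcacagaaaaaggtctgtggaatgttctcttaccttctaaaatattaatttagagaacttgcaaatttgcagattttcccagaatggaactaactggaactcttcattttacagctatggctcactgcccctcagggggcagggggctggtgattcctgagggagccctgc
The Meg3 window held 13 CpG dinucleotides, and the Rian window held 0.

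Meg3 had 433 and 546 counts (24.3 and 25.1 CPM) in the Trps1 siRNA samples, against 341 and 338 counts (17.0 and 13.2 CPM) in the Negative siRNA samples. The groups did not overlap. The log2 fold change was 0.72 ± 0.12 (SE), with an adjusted p of 0.000155 by edgeR's quasi-likelihood test. Rian had 443 and 645 counts (24.8 and 29.7 CPM) with Trps1 siRNA, against 396 and 479 counts (19.7 and 18.7 CPM) with Negative siRNA. Its groups were also separate, with Trps1 siRNA sample 2 the highest. The log2 fold change was 0.51 ± 0.11 and edgeR's adjusted p was 0.00173. Without Trps1 siRNA sample 2, Rian had a log2 fold change of 0.37 and an adjusted p of 0.0992 in edgeR's test, within a range over all alternatives of 4.42e-05 to 0.0992. Meg3 passed in all 11 alternatives, with estimates of 0.54 to 0.90.

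The other members of the cluster did not pass. Mirg, the host transcript of a large microRNA cluster downstream of Rian, had 1.57 and 2.39 CPM with Trps1 siRNA and 1.74 and 0.820 CPM with Negative siRNA, with overlapping groups and an estimate of 0.68 ± 0.37 (edgeR adjusted p 0.279). With a sample left out the estimate of Mirg ran from 0.20, without Negative siRNA sample 2, to 1.28, without Negative siRNA sample 1. Dlk1, a paternally expressed transmembrane protein that restrains adipocyte differentiation, had 0.784 and 0.644 CPM with Trps1 siRNA and 0.448 and 0.820 CPM with Negative siRNA. Its groups overlapped, at an estimate of 0.13 ± 0.51 (edgeR adjusted p 0.918). Rtl1, a retrotransposon-derived gene needed in placental vessels, had no counts in any library. Of 67 annotated microRNA features between Dlk1 and Dio3, 2 had any count, 3 reads in all and all in Negative siRNA sample 1, and none of the 23 small nucleolar RNA features had one. Mature small RNAs of the cluster were therefore not measurable here. Dio3, a thyroid hormone deiodinase at the far end of the cluster, had an estimate of -0.07 ± 0.32 (edgeR adjusted p 0.931).

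Genes around the cluster were set beside it. The nearest tested genes outside the members, Begain on one side and Dio3os on the other, had estimates of -0.08 ± 0.35 and -0.30 ± 0.45, and neither passed edgeR's test (adjusted p 0.928 and 0.750). Among all 44 tested genes other than members from 1.5 Mb before Dlk1 to 1.5 Mb after Dio3, 2 were called higher and 1 lower by edgeR's test. The shares over all genes tested were 5.24% higher and 6% lower. The called genes were Ccdc85c (0.27 ± 0.08, adjusted p 0.0189), Rcor1 (0.23 ± 0.08, adjusted p 0.0438) and Ckb (-0.41 ± 0.08, adjusted p 0.000557), named after their values were seen. Both higher calls were smaller in estimate than those of Meg3 and Rian, and all 3 lay more than a megabase from Meg3.

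**Figure D3:**
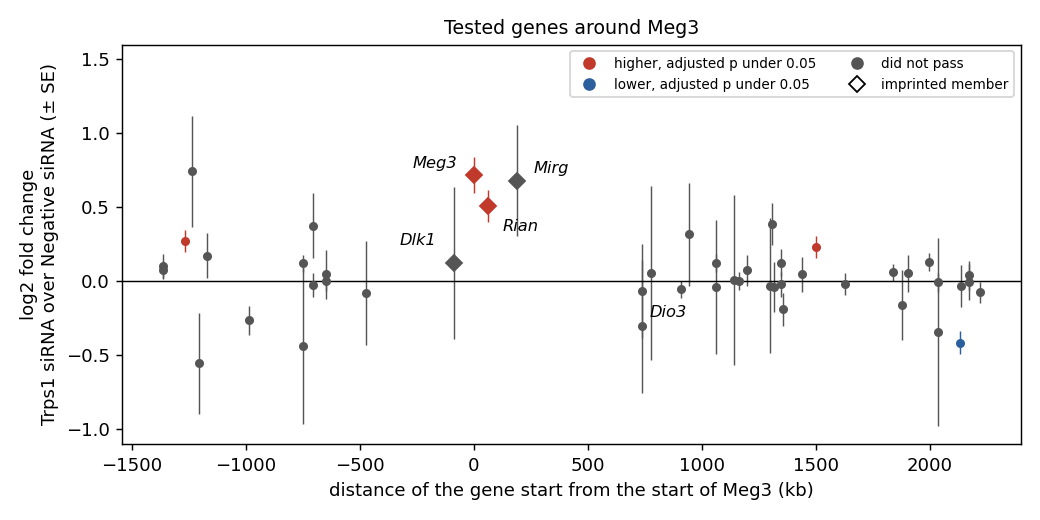
Log2 fold change (Trps1 siRNA over Negative siRNA, bars are SE) of every tested gene around the Dlk1-Meg3 cluster against the distance of its start from that of Meg3 in kb; diamonds are imprinted members, and colours mark an adjusted p under 0.05. Meg3 at 0.72 and Rian at 0.51 are the called members, with Mirg at 0.68 and Dlk1 at 0.13 beside them not passing.

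Grb10 had the smallest p of all members. It encodes an adaptor protein that dampens signalling by the insulin and insulin-like growth factor receptors, and it is maternally expressed in most mouse tissues and paternally expressed in neurons. The window below lies on the minus strand of chromosome 11 (GRCm38.p6 chr11:12037371-12037670), 1263 bases from the start of the annotated gene, and is shown because Grb10 is the most abundant called member per CPM. Capitals mark GCGGCA, the reverse complement of TGCCGC.
Grb10: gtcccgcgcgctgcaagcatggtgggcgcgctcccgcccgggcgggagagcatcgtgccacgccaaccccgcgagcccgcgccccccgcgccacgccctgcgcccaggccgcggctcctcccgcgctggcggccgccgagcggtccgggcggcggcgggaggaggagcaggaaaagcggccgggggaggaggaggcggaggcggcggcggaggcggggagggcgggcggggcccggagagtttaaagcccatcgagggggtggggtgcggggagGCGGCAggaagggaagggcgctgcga
With 45 CpG dinucleotides and 80.0% G and C, it was the richest in both of the windows printed here.

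Grb10 had 1847 and 2634 counts (103 and 121 CPM) with Trps1 siRNA, against 1482 and 1788 counts (73.7 and 69.8 CPM) with Negative siRNA. Both Trps1 siRNA samples lay well above both Negative siRNA samples. The log2 fold change was 0.65 ± 0.07, and edgeR's adjusted p was 6.98e-07. Every alternative kept the call, at 0.53 to 0.76. The nearest tested genes on each side, Fignl1 at 121.5 kb (0.28 ± 0.14, adjusted p 0.239) and Sec61g at 4462 kb (-0.06 ± 0.07, adjusted p 0.638), did not pass edgeR's test, and the distance of Sec61g makes it no close neighbour.

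Plagl1, a paternally expressed zinc finger transcription factor known to regulate other imprinted genes, rose. Its window on chromosome 10 (GRCm38.p6 chr10:13090582-13090881, plus strand) lies 30.3 kb from the start of the annotated gene. It is shown because Plagl1 is a called single-gene domain, and capitals again mark GCGGCA.
Plagl1: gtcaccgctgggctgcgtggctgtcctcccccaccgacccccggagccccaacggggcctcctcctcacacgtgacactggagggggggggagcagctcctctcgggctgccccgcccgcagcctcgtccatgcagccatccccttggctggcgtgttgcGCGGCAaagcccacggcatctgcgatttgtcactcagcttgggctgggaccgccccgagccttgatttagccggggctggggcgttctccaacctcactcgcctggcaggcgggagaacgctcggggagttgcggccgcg
Plagl1 had 183 and 263 counts (10.3 and 12.1 CPM) with Trps1 siRNA, against 188 and 145 counts (9.35 and 5.66 CPM) with Negative siRNA. The groups did not overlap in CPM, but sample 2 of Negative siRNA was lower than the other 3 samples. The log2 fold change was 0.60 ± 0.19, with an adjusted p of 0.0438 by edgeR's quasi-likelihood test.

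The Plagl1 call depended on single samples. Without Negative siRNA sample 2 its log2 fold change was 0.26 and edgeR's adjusted p was 0.491. Without Trps1 siRNA sample 1 these were 0.70 and 0.0696, and without Trps1 siRNA sample 2 they were 0.46 and 0.373, all by edgeR. DESeq2 gave an adjusted p of 0.191, and over all alternatives adjusted p ran from 3.98e-05 to 0.491. Of its neighbours, Sf3b5, a splicing factor subunit 51.3 kb away, fell (57.6 and 55.5 CPM with Trps1 siRNA, 66.9 and 65.8 CPM with Negative siRNA; -0.23 ± 0.07, edgeR adjusted p 0.0314). Ltv1 on the other side did not pass (-0.04 ± 0.10, edgeR adjusted p 0.877).

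In the Peg10-Sgce cluster on chromosome 6, Ppp1r9a and Sgce rose, and all 3 tested members had both Trps1 siRNA samples above both Negative siRNA samples, as did 26% of all genes tested. Ppp1r9a encodes neurabin-1, an actin-binding regulator of protein phosphatase 1, and its maternal expression is known from extraembryonic tissue of the mouse. Its window (GRCm38.p6 chr6:4902725-4903024, plus strand) holds neither motif and is shown as the called member without one.
Ppp1r9a: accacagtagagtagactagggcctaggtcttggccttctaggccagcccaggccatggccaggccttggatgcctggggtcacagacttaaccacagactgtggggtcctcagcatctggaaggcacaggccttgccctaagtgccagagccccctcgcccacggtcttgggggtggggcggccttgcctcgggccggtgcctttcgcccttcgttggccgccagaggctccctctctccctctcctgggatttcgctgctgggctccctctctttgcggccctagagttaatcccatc
Ppp1r9a had 247 and 280 counts (13.8 and 12.9 CPM) with Trps1 siRNA, against 200 and 251 counts (9.95 and 9.81 CPM) with Negative siRNA. The estimate was 0.43 ± 0.13, with an adjusted p of 0.0330 by edgeR's test.

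Sgce, the paternally expressed epsilon-sarcoglycan of the cell membrane, had 58.8 and 53.7 CPM with Trps1 siRNA and 48.2 and 47.7 CPM with Negative siRNA. Its estimate of 0.23 ± 0.08 was the smallest of the called members, with an adjusted p of 0.0485 by edgeR's test. Peg10, its paternally expressed neighbour, is derived from a retrotransposon and needed for the placenta. It had 2.86 and 3.73 CPM with Trps1 siRNA and 2.14 and 2.62 CPM with Negative siRNA (0.47 ± 0.26, edgeR adjusted p 0.277). Leaving out any 1 of the 4 samples ended the calls of both Ppp1r9a, at 0.38 to 0.48, and Sgce, at 0.16 to 0.29. Over all alternatives edgeR, DESeq2 or voom adjusted p ran from 0.0171 to 0.209 for Ppp1r9a and from 0.0181 to 0.276 for Sgce. The genes Pon2 and Pon3, which lie between Ppp1r9a and Asb4, had estimates of 0.13 ± 0.06 and 0.11 ± 0.06 (edgeR adjusted p 0.137 and 0.270), and the outer neighbours Casd1 and Pdk4 had -0.02 ± 0.11 and 0.04 ± 0.06 (edgeR adjusted p 0.944 and 0.746).

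**Figure D4:**
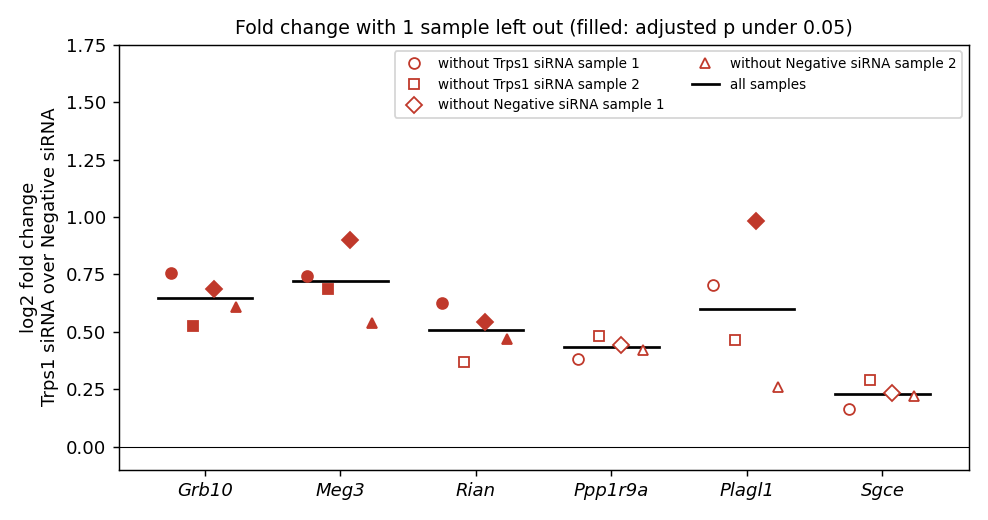
Log2 fold change (Trps1 siRNA over Negative siRNA) of the 6 called members with each sample left out in turn; symbols name the sample left out, filled symbols have an adjusted p under 0.05, and lines are the values over all samples. Grb10 and Meg3 have 4 filled symbols each, Rian has 3, Plagl1 has 1, and Ppp1r9a and Sgce have 0.

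The Snrpn-Ndn cluster on chromosome 7, whose members are paternally expressed, had estimates below 0 for each of its 3 tested genes, none of which passed edgeR's test. In each of them both Trps1 siRNA samples lay below both Negative siRNA samples, which held for 26.1% of all genes tested. Ndn, which encodes necdin, a growth-restraining protein of the MAGE family, was by far the most abundant, with 47.6 and 43.7 CPM with Trps1 siRNA and 52.5 and 48.1 CPM with Negative siRNA (-0.14 ± 0.08, edgeR adjusted p 0.291). Snrpn, a spliceosome protein, had 6.22 and 5.43 CPM with Trps1 siRNA and 8.31 and 6.52 CPM with Negative siRNA (-0.34 ± 0.18, edgeR adjusted p 0.240). It shares exon sequence on the same strand with the annotated genes Gm38393 and Snurf, and how reads there were counted is not given. Gm38393 had 2 and 4 counts with Trps1 siRNA and 2 and 3 with Negative siRNA, and Snurf had none. Magel2, another gene of the MAGE family, had no counts. Other tested genes inside the cluster were Mkrn3 (0.33 ± 0.46, edgeR adjusted p 0.728) and the pseudogene Gm10297 (-0.18 ± 0.31, edgeR adjusted p 0.787). The nearest tested genes on each side were Snhg14 (0.37 ± 0.34, edgeR adjusted p 0.565) and the pseudogene Atp5l-ps1 (0.06 ± 0.60, edgeR adjusted p 0.973). The estimates below 0 are thus those of the 3 members, not of every gene of the region.

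Peg12, a Frat-family gene of the same cluster whose protein binds the kinase Gsk3, had the most negative estimate of all members. It had 25 and 27 counts (1.40 and 1.24 CPM) with Trps1 siRNA, against 43 and 70 counts (2.14 and 2.73 CPM) with Negative siRNA, at -0.90 ± 0.31 (edgeR adjusted p 0.0665). Nap1l5, a paternally expressed relative of nucleosome assembly proteins that sits within Herc3 on chromosome 6, had 3.75 and 2.62 CPM with Trps1 siRNA and 5.57 and 3.95 CPM with Negative siRNA, at -0.58 ± 0.24 (edgeR adjusted p 0.123). The estimate of Nap1l5 was -0.32 without Negative siRNA sample 1, -0.33 without Trps1 siRNA sample 2, -0.82 without Negative siRNA sample 2 and -0.85 without Trps1 siRNA sample 1. Peg12 and Nap1l5 were the 2 members lower at an unadjusted p under 0.05, and for that reason their windows are shown, on the minus strand at GRCm38.p6 chr7:62464461-62464760 for Peg12 and chr6:58907077-58907376 for Nap1l5. Capitals mark TGCCGC, which is present at 2 places in Nap1l5 and not in Peg12.
Peg12: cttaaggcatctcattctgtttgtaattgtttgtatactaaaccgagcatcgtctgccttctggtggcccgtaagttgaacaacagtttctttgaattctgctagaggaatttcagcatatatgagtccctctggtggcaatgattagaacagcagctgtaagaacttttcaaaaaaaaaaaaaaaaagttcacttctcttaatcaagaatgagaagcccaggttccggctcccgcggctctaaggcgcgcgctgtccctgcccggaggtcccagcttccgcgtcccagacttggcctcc
Nap1l5: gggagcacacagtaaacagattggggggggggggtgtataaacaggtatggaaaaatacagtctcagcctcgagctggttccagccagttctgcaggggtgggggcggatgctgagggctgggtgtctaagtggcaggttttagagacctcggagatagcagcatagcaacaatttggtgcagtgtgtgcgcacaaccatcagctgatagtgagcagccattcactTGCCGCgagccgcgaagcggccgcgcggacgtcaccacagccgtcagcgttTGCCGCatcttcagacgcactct
The host gene Herc3 had an estimate of 0.09 ± 0.10 (edgeR adjusted p 0.665).

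In the H19-Igf2 domain, both genes had few counts. Igf2, the paternally expressed fetal growth factor, had 6 and 7 counts with Trps1 siRNA and 0 and 0 with Negative siRNA. It was left out of the test. Scaled by library size, its 13 pooled counts with Trps1 siRNA were 5.05 times a floor of 3 counts over the Negative siRNA group. That ratio takes the 13 counts as exact, without counting error, and is not a lower bound. Of the exon bases of Igf2, 62.8% are shared with the annotated gene Gm49394 on the same strand, which had no counts. How reads in shared bases were counted is not given. H19, the maternally expressed non-coding RNA of the domain, had 8 and 10 counts with Trps1 siRNA and 11 and 10 with Negative siRNA, and was also not tested.

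In the neighbouring Kcnq1ot1 domain, levels were low and no tested member passed. Cdkn1c, a maternally expressed inhibitor of cyclin-dependent kinases, had 0.784 and 1.01 CPM with Trps1 siRNA and 0.746 and 0.664 CPM with Negative siRNA (0.36 ± 0.47, edgeR adjusted p 0.703). Of the exon bases of Cdkn1c, 30.65% overlap Gm44732 on the opposite strand, which had no counts. Kcnq1ot1, the paternal non-coding RNA that silences the domain, had 7 and 9 counts with Trps1 siRNA and 13 and 13 with Negative siRNA (-0.49 ± 0.59, edgeR adjusted p 0.678). It lies antisense to Kcnq1, and whether counting used strand is not given. Phlda2, a maternally expressed restraint on placental growth, had 4 and 1 counts with Trps1 siRNA and 1 and 1 with Negative siRNA.

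In the Peg3 cluster the groups overlapped. Peg3, a paternally expressed zinc finger gene, had 7.34 and 4.37 CPM with Trps1 siRNA and 3.98 and 4.88 CPM with Negative siRNA (0.38 ± 0.22, edgeR adjusted p 0.321). Trps1 siRNA sample 1 alone was high, and without it the estimate was -0.03. Zim1, a maternally expressed zinc finger gene, had 0.448 and 1.15 CPM with Trps1 siRNA and 0.497 and 0.586 CPM with Negative siRNA (0.59 ± 0.53, edgeR adjusted p 0.560). The ubiquitin-specific peptidase gene Usp29 had at most 3 counts in every sample, as did Asb4 of the Peg10-Sgce cluster, and Rtl1, Magel2 and Slc22a3 had none.

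The remaining members stand alone or in small domains, and none of them passed edgeR's test. Impact, a paternally expressed inhibitor of the Gcn2 stress kinase, was close to the threshold, with 82.6 and 85.5 CPM with Trps1 siRNA and 74.7 and 73.8 CPM with Negative siRNA (0.18 ± 0.06, edgeR adjusted p 0.0702). Mcts2, a paternally expressed retrogene inside H13, had 10.2 and 7.96 CPM with Trps1 siRNA and 6.67 and 7.03 CPM with Negative siRNA (0.40 ± 0.16, edgeR adjusted p 0.125), while its host H13 had -0.09 ± 0.06 (edgeR adjusted p 0.371). Zdbf2, a paternally expressed zinc finger gene, had the most positive estimate of all members from few counts, 25 and 35 with Trps1 siRNA against 15 and 21 with Negative siRNA (0.94 ± 0.40, edgeR adjusted p 0.146). In all 3 of these genes both Trps1 siRNA samples lay above both Negative siRNA samples, as in 26% of all genes tested.

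A further 4 members lay near 0 or rested on few reads. Gnas, which encodes the stimulatory G protein that couples the luteinizing hormone receptor of Leydig cells to adenylyl cyclase, had 23.4 and 26.2 CPM with Trps1 siRNA and 23.5 and 22.1 CPM with Negative siRNA (0.12 ± 0.10, edgeR adjusted p 0.509). Of the exon bases of Gnas, 13.1% overlap Gm20721 and 8.83% overlap Nespas on the opposite strand, both without counts. Copg2, a coat protein of Golgi vesicles, had 42.3 and 36.3 CPM with Trps1 siRNA and 41.2 and 40.0 CPM with Negative siRNA (-0.05 ± 0.08, edgeR adjusted p 0.791). Its paternally expressed neighbour Mest, a hydrolase-like protein of the endoplasmic reticulum, had 3.30 and 2.90 CPM with Trps1 siRNA and 2.74 and 2.70 CPM with Negative siRNA (0.19 ± 0.25, edgeR adjusted p 0.715). Mest and Copg2 share 912 exon bases on opposite strands, where reads could not be told apart without strand. Nnat, a small membrane protein of the endoplasmic reticulum, had 0.840 and 0.920 CPM with Trps1 siRNA and 1.39 and 1.33 CPM with Negative siRNA (-0.62 ± 0.40, edgeR adjusted p 0.378).

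Airn, the paternal non-coding RNA that silences Igf2r in many mouse tissues and Slc22a3 in placenta, had 1.57 and 0.828 CPM with Trps1 siRNA and 1.34 and 1.17 CPM with Negative siRNA (-0.09 ± 0.41, edgeR adjusted p 0.927). Igf2r, the clearance receptor for insulin-like growth factor 2, had an estimate of 0.15 ± 0.06 (edgeR adjusted p 0.139). Slc22a3, an organic cation transporter, had no counts.

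Per length, in TPM (counts divided by exon length and scaled to the library), the imprinted genes covered more than 3 orders of magnitude. Impact was highest in both groups, at 51.2 ± 1.67 TPM with Trps1 siRNA and 45.0 ± 1.21 TPM with Negative siRNA (SD, n = 2 each). In the order of the Negative siRNA samples Ndn followed, at 38.6 ± 2.00 TPM with Trps1 siRNA and 42.3 ± 3.39 TPM with Negative siRNA, and its Negative siRNA samples overlapped those of Impact. In that order Copg2, Grb10 and Mcts2 came next, at 24.0, 38.6 and 31.1 TPM with Trps1 siRNA and at 24.6, 24.5 and 23.3 TPM with Negative siRNA. The ranges of neighbours in this trio overlapped in the Negative siRNA samples, and in the Trps1 siRNA samples Grb10, at 35.4 and 41.9 TPM, lay above Copg2, at 25.7 and 22.3 TPM, with a mean close to that of Ndn, and Mcts2 lay above Copg2 as well. Sgce averaged 16.6 TPM with Trps1 siRNA and 14.0 TPM with Negative siRNA and stood apart from its neighbours in the order of the Negative siRNA samples. The non-coding RNAs Rian and Meg3 were far lower per length, at 4.67 and 4.27 TPM with Trps1 siRNA and 3.27 and 2.59 TPM with Negative siRNA. Kcnq1ot1, a transcript of 93092 annotated bases, was the lowest tested member, at 0.0135 TPM with Trps1 siRNA and 0.0193 TPM with Negative siRNA.

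**Figure D5:**
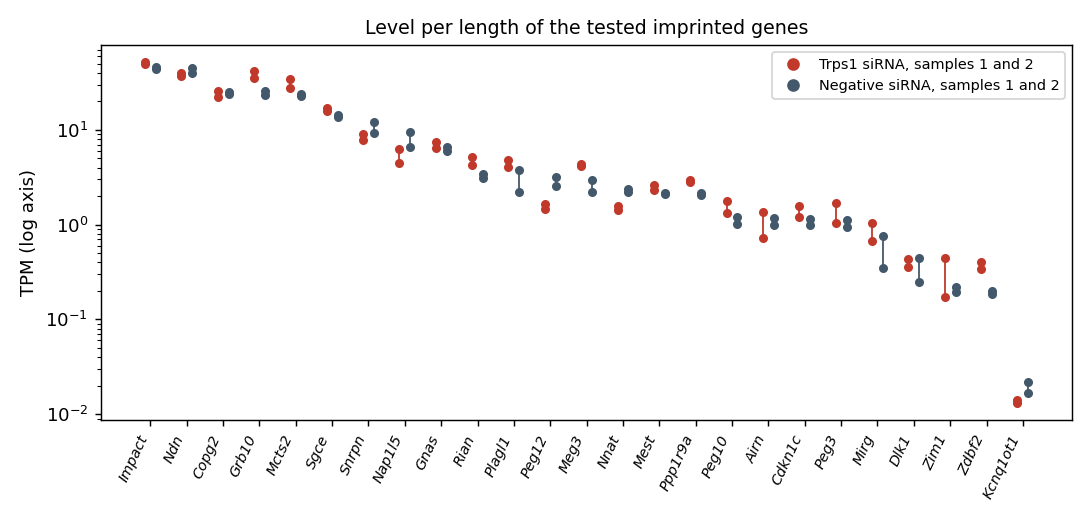
TPM (log axis) of the 25 tested imprinted genes, ordered by their mean in the Negative siRNA samples; points are single samples, Trps1 siRNA left of Negative siRNA, joined by a line within each group. Levels run from Impact, at 51.2 TPM with Trps1 siRNA and 45.0 TPM with Negative siRNA, to Kcnq1ot1 at 0.0135 and 0.0193 TPM.

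Promoter windows of 300 bases were available from RefSeq (GRCm38.p6) for 27 of the 33 members, 43 windows in all. TGCCGC on either strand was in 13 of them, or 30.2%, and in 11.6% of all 32851 windows. Windows of the same gene can overlap and are counted separately. Those of Mest at 14503 and 14506 bases from its annotated start both held the motif. Windows of the members had a median of 13 CpG dinucleotides and 57.3% G and C, against 7 and 52.7% for all windows, so the base composition that raises the chance of this motif also differed. AGATAA on either strand was in 1 window, that of Rian, or 2.33%, and in 11.2% of all windows. Other forms of the GATA-type core were not searched, so these shares are of AGATAA alone. Neither motif contains the other. Of the 8 windows of called members, 3 held TGCCGC and 1 held AGATAA, and these letters are a description of the sequence only.

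Other imprinted genes were read from a further list of 50, outside the 33. Of these 35 were tested, none was called higher and 1 (2.86%) was called lower by edgeR's test, beside 5.24% higher and 6% lower over all genes tested, with a median log2 fold change of 0.02. At an unadjusted p under 0.05, 3 were higher, and DESeq2 and voom called 0 higher. The gene that fell was Dcn, which encodes the matrix proteoglycan decorin and is imprinted in mouse placenta. It had 211 and 205 CPM with Trps1 siRNA and 250.3 and 249.9 CPM with Negative siRNA (-0.26 ± 0.06, edgeR adjusted p 0.00268). In a list of 16 genes known as the imprinted gene network, co-regulated in mouse tissues and partly the same genes as the 33, 14 were tested, 4 rose (28.6%; Grb10, Meg3, Plagl1 and Sgce) and 1 fell (7.14%; Dcn), beside the same 5.24% and 6%, with a median of 0.17. The 4 that rose are counted above among the 33, so this adds no separate evidence.

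Genes that set or keep imprints did not pass. Of 22 listed DNA methyltransferases, demethylating enzymes, zinc finger proteins, Polycomb and other chromatin proteins, 19 were tested and 0 were called by edgeR's test, with a median log2 fold change of 0.01. At an unadjusted p under 0.05 there were 2, and DESeq2 and voom called 0. These were Suz12, a Polycomb subunit (46.2 and 50.7 CPM with Trps1 siRNA, 43.3 and 42.2 CPM with Negative siRNA; 0.18 ± 0.08, edgeR adjusted p 0.148), and Zfp445, a zinc finger protein that protects imprints (47.4 and 51.2 CPM with Trps1 siRNA, 41.9 and 46.1 CPM with Negative siRNA; 0.16 ± 0.08, edgeR adjusted p 0.209), both named after their values were seen.

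For the 4 clusters with a called member, the 8 nearest tested genes on either side held 1 call, Sf3b5, which fell, and 7 genes that did not pass. Over all genes tested, 5.24% were called higher and 6% lower. Begain and Casd1 are on the further imprinted list and Dio3os lies next to Dio3, so these genes are not all outside imprinted domains. Only 3 members, Grb10, Meg3 and Rian, were in the authors' deposited table of 780 genes. In the authors' deposited table the log2 fold changes were 0.64 for Grb10 (adjusted p 0.000466), 0.71 for Meg3 (adjusted p 3.48e-05) and 0.50 for Rian (adjusted p 0.0322).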

How the data were processed

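The authors deposited raw read counts per gene, and the submitters' processing notes name HISAT2, featureCounts and GRCm38 (mm10), without versions; read length and strandedness are not stated there. The authors' deposited comparison of 780 genes, with signal per group, log2 fold changes, p-values and adjusted p-values, was used only for the members it lists. Counts were tested with edgeR 4.0.16 (R 4.3.3): TMM, filterByExpr with a minimum count of 10, robust quasi-likelihood fit, group only, 2 residual degrees of freedom, Benjamini-Hochberg adjustment over 14701 genes, calls at 0.05. SE is the absolute log2 fold change over the square root of F. CPM used TMM-scaled library sizes, and TPM used merged exon lengths of GENCODE M21. The biological coefficient of variation was 0.0664. Replicates differed beyond sampling noise, with a mean chi-square per gene of 4.34 for Trps1 siRNA and 7.08 for Negative siRNA. Depth, 17844125 to 25852898 counts, limits members of few counts.

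Members and lists were chosen with earlier results of these data known, so no list was tested as a set and their counts are descriptions. The text names all members, called genes of the further imprinted and imprint regulator lists, the nearest tested genes on each side of clusters with a called member, and Trps1. Dio3, Pon2, Pon3, Herc3, H13, Igf2r, Mkrn3, Gm10297, Snhg14, Atp5l-ps1, Acta2, Myl9, Col3a1, Col1a2, Gata1 and Zbtb16 were added after their values were seen. Alternatives were RLE factors, library totals, no filter, only genes averaging 5 CPM or more, DESeq2 1.42.0, limma 3.58.1 voom, the replicate number as a block and each sample left out, where the lone sample is assumed to vary like the other group. Sequences are RefSeq's; where a gene has several windows, the one nearest the annotated gene start is printed.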

Additional observations from a re-analysis of the deposited data

How the results depend on the processing

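Trps1 stayed called in all 11 alternatives. Higher calls among members, 6 as reported, were 3 with DESeq2 (Grb10, Meg3 and Rian) and 2 to 4 with a sample left out. Lower calls among members, 0 as reported, were 1 under the replicate block (Peg12, -0.89, edgeR adjusted p 0.0426) and 0 to 1 with a sample left out (Nap1l5 without Negative siRNA sample 2, -0.82, edgeR adjusted p 0.0313, within 0.0313 to 0.616 over its alternatives; its smallest estimate was -0.32). Maternal higher calls were 2 to 3 with a sample left out, and paternal ones were 0 with DESeq2, 1 with voom and 0 to 1 with a sample left out. Higher calls in the Dlk1-Meg3 cluster were 1 to 2 with a sample left out, and those of the imprinted gene network 2 with DESeq2 and 2 to 3 with a sample left out. The further imprinted list had 1 higher call, Osbpl5, with library totals alone and under the replicate block, and the imprint regulators had 0 to 1 with a sample left out (Tet2, without Trps1 siRNA sample 1). Over all genes, 1652 calls became 914 with DESeq2 and 871 to 1675 with a sample left out, 871 being without Trps1 siRNA sample 2. The member median of 0.23 was 0.37 over members averaging at least 5 CPM and 0.20 to 0.27 with a sample left out; the maternal median was 0.34 to 0.68 and the paternal median -0.018 to 0.26.

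With a sample left out, 7 estimates changed sign, none of them called: Dlk1 ran from -0.21 to 0.66, Peg3 from -0.029 to 0.72, Zim1 from -0.28 to 1.07, Copg2 from -0.16 to 0.057 and Airn from -0.60 to 0.32. The cause was not tested. Of 254 alternative values of single members, 228 kept direction and side of the threshold, most of them for members that had no call to lose. The 16 values that lost a call were those of Plagl1, Ppp1r9a, Sgce and Rian. Same-numbered samples hardly deviated together (r = 0.0248 across 14701 genes, which are not independent). The labels do not say whether same-numbered samples were paired, and this value cannot settle it. Without the filter on low counts Igf2 was also called higher. The replicate block gave 2285 calls over all genes and 7 higher members, Impact being added (edgeR adjusted p 0.0323). With 2 samples a group, and under 50 counts in many members, small changes could not be resolved.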
